A study of Mus musculus with 6 samples.

Results

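Respiratory complex I was examined in C2C12 cells, a mouse skeletal muscle line, after knockdown of CD36, a membrane receptor that takes up long-chain fatty acids. The genes were the rows of the deposited gene table that had a coding transcript and a name starting with Nduf, then a, ab, b, c, s or v, then a digit, which leaves out the assembly factors. This gave 38 of 55450 genes, and 37 of them were among the 11796 genes that were tested, those that averaged at least 1 FPKM (fragments per kilobase of transcript, scaled to the depth of the library). RNA-seq compared 3 libraries of cells given siRNA against Cd36 (siCD36) with 3 libraries of cells given a negative control siRNA (siCont). Both groups received 20 nM siRNA and were collected 72 h after transfection, by the methods of the paper. The labels call the cells myoblasts and the paper calls them myotubes. The paper describes a pair of siCD36 duplexes, and the labels do not say which one a library received. The labels do not state whether the libraries of a group are separate cultures, and the p-values therefore reflect only how much these libraries varied, which may be technical variation.

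Complex I is the largest enzyme of the mitochondrial respiratory chain. It takes electrons from NADH, passes them to ubiquinone, and pumps protons across the inner membrane. The N module of its matrix arm oxidizes NADH, the Q module reduces ubiquinone, and the P module in the membrane moves the protons. The core subunits do the chemistry, with some encoded in the nucleus and the others in the mitochondrial genome, while the accessory subunits surround and stabilize them. Skeletal muscle is rich in the complex, and Ndufa4, which the name pattern takes in, is now assigned to complex IV. Ndufa4l2, a relative of Ndufa4 that hypoxia induces, was also taken in by the pattern.

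Short sequences that bind known regulators of respiratory chain genes were looked up in the 250 bases before the start of each gene in RefSeq (GRCm38.p6). The genes varied together across the libraries, as described further on, which is why the promoters are shown. Whether this is particular to complex I is not known, and whether shared regulators play a part was not tested. A promoter was matched for 33 of the 38 genes, and Ndufs1, Ndufa2, Ndufb9 and Ndufa4l2 were among those with no entry. Both strands were searched, and CCGGAA can overlap its own reverse complement, as can GCGCANGCG. The NRF1 letters GCGCANGCG were found in 6 of the 33 promoters (18.2%) and in 5.33% of all 27025 promoters. The ETS letters CCGGAA were found in 8 of the 33 (24.2%) and in 12.2% of all promoters. The YY1 letters AAGATGGCG and the ERR letters TCAAGGTCA were found in none of the 33, and in 0.607% and 0.366% of all promoters. The log2 fold changes (siCD36 over siCont) of the 8 genes with the ETS letters had a median of -0.20 and lay between -0.35 and 0.05. Those of the 6 genes with the NRF1 letters had a median of -0.05 and lay between -0.32 and 0.14. Those of the 19 genes with neither had a median of -0.09 and lay between -0.46 and 0.31. Differences between these sets were not tested. These matches are descriptions of letters, and binding was not measured. For each motif the promoters of the genes with the lowest and the highest log2 fold change are shown, which are Ndufv1 (-0.35) and Ndufb6 (0.05) for the ETS letters and Ndufa5 (-0.32) and Ndufa8 (0.14) for the NRF1 letters. None of these genes passed the test, as given further on. Without 1 library, siCD36 replicate 1, the value was -0.09 in Ndufb6 and 0.01 in Ndufa8. Capitals mark the letters, which begin 69 bases before the start of Ndufv1, 231 bases before the start of Ndufb6, 190 bases before the start of Ndufa5 and, at a pair of places, 29 and 9 bases before the start of Ndufa8. These starts are those of RefSeq and can differ from the deposited coordinates. There Ndufa8 starts at 36049406 and Ndufa5 at 24527570, both on the minus strand, within the bases shown. Both places in Ndufa8 thus lie inside the gene as deposited.
Ndufv1 (chr19:4012756-4013005, minus strand): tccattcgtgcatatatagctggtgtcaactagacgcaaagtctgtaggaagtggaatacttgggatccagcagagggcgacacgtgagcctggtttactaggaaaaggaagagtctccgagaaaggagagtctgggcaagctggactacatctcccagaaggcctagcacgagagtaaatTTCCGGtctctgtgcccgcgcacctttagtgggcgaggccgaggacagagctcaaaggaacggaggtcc
Ndufb6 (chr4:40279422-40279671, minus strand): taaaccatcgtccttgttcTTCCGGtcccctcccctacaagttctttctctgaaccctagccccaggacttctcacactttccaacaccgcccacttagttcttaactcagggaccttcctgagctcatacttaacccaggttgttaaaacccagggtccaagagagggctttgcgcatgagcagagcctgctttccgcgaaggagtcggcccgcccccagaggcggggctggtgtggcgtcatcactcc
Ndufa5 (chr6:24527527-24527776, minus strand): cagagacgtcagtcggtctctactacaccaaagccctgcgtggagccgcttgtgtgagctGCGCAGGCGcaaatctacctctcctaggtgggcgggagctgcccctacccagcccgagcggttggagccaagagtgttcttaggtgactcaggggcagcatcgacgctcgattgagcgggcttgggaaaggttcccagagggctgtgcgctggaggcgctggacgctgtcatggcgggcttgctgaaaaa
Ndufa8 (chr2:36049339-36049588, minus strand): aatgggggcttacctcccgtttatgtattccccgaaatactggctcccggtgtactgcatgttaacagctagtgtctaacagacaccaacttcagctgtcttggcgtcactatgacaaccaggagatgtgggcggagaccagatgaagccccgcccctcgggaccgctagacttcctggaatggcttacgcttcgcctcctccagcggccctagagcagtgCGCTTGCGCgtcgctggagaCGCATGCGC

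The deposited counts summed to between 67048354 and 71878709 in the siCD36 libraries and between 56907806 and 60566530 in the siCont libraries. Levels are given below as CPM, which here means the count of a gene in each 1000000 counts of the tested genes in its library, after scaling by TMM, a method that centers most genes on no change. Cd36 had 0.578, 0.460 and 0.412 CPM with siCD36, against 17.7, 18.8 and 19.2 CPM with siCont, and it fell with a log2 fold change of -5.26 (edgeR adjusted p = 0.000295). Of 10 muscle markers Myh3, the embryonic myosin, fell with a log2 fold change of -0.62 (edgeR adjusted p = 0.0210) and 9 did not pass. Of the 10, 6 were below 0 and 4 above. The summed level of the 10 was 13415 to 18067 CPM with siCD36, against 17476 to 23010 CPM with siCont. Mef2c, 1 of the 10, had 0.427 FPKM in siCD36 replicate 1, against 4.01 to 5.42 FPKM in the other libraries. Of 8 markers of undifferentiated or dividing cells, 4 could be tested, and Myf5, a factor of myoblasts, rose with a log2 fold change of 0.93 (edgeR adjusted p = 0.0274). Their summed level was 59.4 to 81.0 CPM with siCD36, against 39.5 to 43.4 CPM with siCont. The calls of Myh3 and Myf5 were each lost in 4 of the 6 fits that left out 1 library (kept without siCD36 replicate 1 in both, without siCD36 replicate 3 for Myh3 and without siCont replicate 3 for Myf5), with adjusted p values up to 0.113 and 0.116 from edgeR. Among markers of other cell types, the summed level of 5 adipocyte genes was at most 0.110 CPM and that of 5 macrophage genes was 1.43 to 2.45 CPM with siCD36, against 2.71 to 2.96 CPM with siCont. The defining endothelial genes Pecam1, Cdh5, Kdr and Emcn were all below the level tested, while Tek, a receptor of endothelial cells, rose with a log2 fold change of 1.15 (edgeR adjusted p = 0.0216), a call that was lost in 5 of the 6 fits that left out 1 library (kept without siCD36 replicate 1). In bulk samples such as these, fewer cells of a type and less RNA per cell cannot be told apart. Within siCD36, replicate 1 was highest and replicate 3 lowest in most complex I genes, and replicate 1 was the nearest to siCont. The results are given with all 6 libraries and with single libraries left out, replicate 1 of siCD36 among them.

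No complex I gene passed the test in either direction. Of the 37 genes tested, 0 rose and 0 fell at an adjusted p under 0.05 from edgeR, where 2.2% of all tested genes rose and 3.06% fell. At an unadjusted p under 0.05, 7 of the 37 were lower and 0 higher in edgeR, where 12.9% of all tested genes were lower and 12.5% higher. DESeq2, another count test, called 1 of them lower, Ndufv1, with an adjusted p of 0.0441, where it called 7.73% of all genes lower, and limma on FPKM called 0 of them. The log2 fold changes were mostly small and negative, with 30 of 37 below 0 (81.1%) and a median of -0.13, against 49.5% below 0 and a median of 0.00277 over all tested genes. They ran from -0.46 in Ndufa4 to 0.31 in Ndufc1. Every one of the 37 intervals of 95% lay between -1 and 1, that is within a change of 2-fold, with bounds from -0.93 to 0.91, and 28 lay within 0.585 of 0, that is within a change of 1.5-fold. The 9 genes whose intervals reached past a change of 1.5-fold were Ndufv1, Ndufa13, Ndufa4, Ndufs8, Ndufb7, Ndufb5, Ndufa5, Ndufc1 and Ndufa11.

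**Figure D1:**
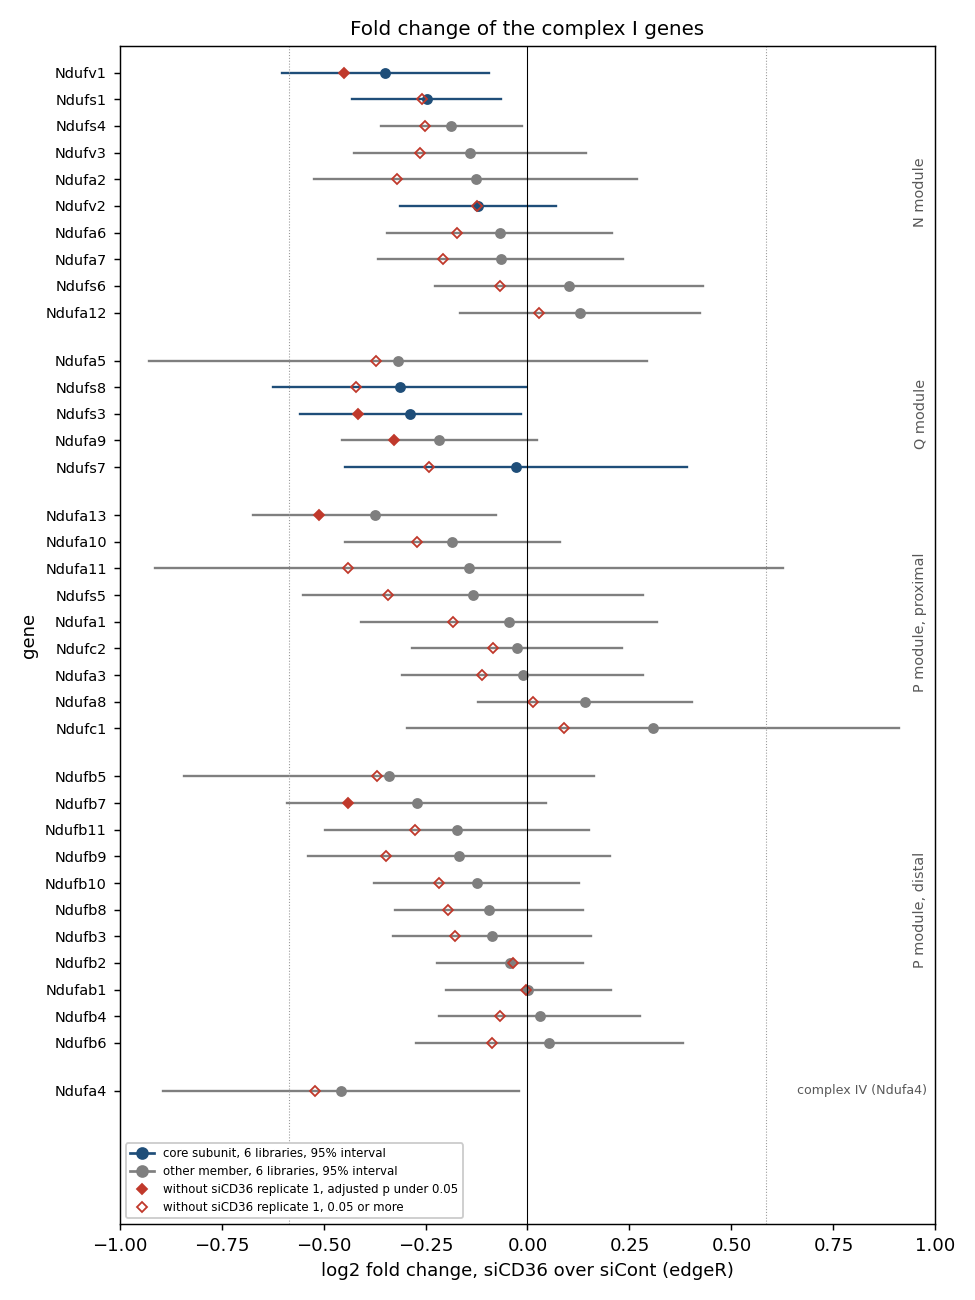
Log2 fold change (siCD36 over siCont, horizontal axis) of 36 of the tested genes, by module, from edgeR. Circles with lines are fits on 6 libraries with 95% intervals (blue for core subunits, gray for others), diamonds are fits without siCD36 replicate 1 (filled where the adjusted p is under 0.05), and dotted lines mark a change of 1.5-fold. Of the circles 29 of 36 lie below 0, and 5 diamonds are filled. In 31 of the 36 genes replicate 1 was the highest siCD36 library, so leaving it out lowers their siCD36 mean.

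The groups were also compared library by library. In 5 of the 37 genes all 3 siCD36 values lay below all 3 siCont values, and in 0 they lay above. Over all tested genes the siCD36 values lay below in 16.3% and above in 16.1%. The share of complex I genes that lay below was thus near the background, and the share that lay above was under it. Without overlap in either direction were 13.5% of the complex I genes, against 32.4% of all tested genes. The 5 genes were Ndufv1, Ndufs1, Ndufa13, Ndufs4 and Ndufa4. With 1 library left out, fewer values are left to overlap, and the share over all tested genes was higher too. Without siCD36 replicate 1 the siCD36 values lay below in 21 of the 37 genes (56.8%) and above in 0, where they lay below in 25.8% of all tested genes. They lay below in 8 genes without siCD36 replicate 2 (18.8% of all tested genes), in 5 without siCD36 replicate 3 (19.7%), in 5 without siCont replicate 1 (20.7%), in 8 without siCont replicate 2 (19% of all tested genes) and in 9 without siCont replicate 3 (21.8%). They lay above in 0 genes in these fits except without siCD36 replicate 3, where they did in 3 (20.2% of all tested genes). Replicate 1 was the highest siCD36 library in 32 of the 37 genes, so leaving it out favored values below in this set.

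The 7 core genes encoded in the nucleus all had log2 fold changes below 0, with a median of -0.25. Of these, 4 had an unadjusted p under 0.05 in edgeR, where 12.9% of all tested genes were lower. None passed edgeR after adjustment, and 1 passed DESeq2 (Ndufv1), which called 7.73% of all genes lower. The summed level of the 7 core genes was 1230, 1127 and 1066 CPM in siCD36 replicates 1 to 3. In siCont replicates 1 to 3 it was 1364, 1287 and 1276 CPM, so that the groups did not overlap. Ndufv1 (ENSMUSG00000037916, chromosome 19 from 4007384 to 4012759 in the deposited table, whose coordinates match GRCm38), which binds NADH and its flavin, had 103, 90.2 and 78.0 CPM with siCD36, against 119, 114 and 111 CPM with siCont. All 3 siCD36 libraries were lower than every siCont library, by a log2 fold change of -0.35 (standard error, SE, 0.106, edgeR adjusted p = 0.108). Ndufs1 (ENSMUSG00000025968, chromosome 1 from 63143596 to 63176822), which carries iron-sulfur clusters of the N module, had 252, 251 and 241 CPM with siCD36, against 319, 295 and 269 CPM with siCont. The siCD36 values lay close together here and again below all siCont values, with a log2 fold change of -0.25 (SE 0.0762, edgeR adjusted p = 0.112). Exons of Ndufs1 share bases with Eef1b2 on the other strand, and a strand setting is not given in the sources used here, so reads of the shared bases cannot be told apart. Ndufv2, another iron-sulfur subunit of the N module, had 241, 262 and 217 CPM with siCD36, against 266, 255 and 261 CPM with siCont, with overlap between the groups and a log2 fold change of -0.12 (-0.19 to -0.05 with single libraries left out).

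The other core genes belong to the Q module, and the groups overlapped in those named here. Ndufs3 (chromosome 2 from 90894634 to 90904827), a scaffold of the Q module, had 119, 92.1 and 93.5 CPM with siCD36, against 131, 118 and 122 CPM with siCont, and the log2 fold change was -0.29 (SE 0.113, edgeR adjusted p = 0.177). Ndufs8 (chromosome 19 from 3908863 to 3912734), which carries iron-sulfur clusters, had 84.7, 72.7 and 65.1 CPM with siCD36, against 105, 83.2 and 88.6 CPM with siCont, and a log2 fold change of -0.31 (SE 0.129, edgeR adjusted p = 0.192). In both genes siCD36 replicate 1 reached into the siCont range while replicates 2 and 3 lay below it. Ndufs7, which helps to form the ubiquinone site, had 57.0, 41.5 and 35.8 CPM with siCD36, against 46.1, 48.3 and 42.6 CPM with siCont, and siCD36 held both its highest and its lowest value. Its log2 fold change of -0.03 ran from -0.24 to 0.11 as single libraries were left out, with 3 of these 6 values above 0. Exons of Ndufs3 share bases with Kbtbd4 on the other strand.

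The 30 accessory genes and relatives that were tested had a median log2 fold change of -0.11, with 23 below 0. Ndufa13 (chromosome 8 from 69894180 to 69902558), a subunit of the proximal part of the P module, had 133, 111 and 94.2 CPM with siCD36, against 149, 146 and 142 CPM with siCont. The siCont values lay within a narrow band and all siCD36 values below it, with a log2 fold change of -0.37 (SE 0.124, edgeR adjusted p = 0.128). Exons of Ndufa13 share bases with Tssk6, a kinase gene on the other strand. Ndufs4, an accessory subunit of the N module whose loss in mice gives a model of Leigh syndrome, had 147, 132 and 127 CPM with siCD36, against 157, 150 and 155 CPM with siCont, with no overlap and a log2 fold change of -0.19 (SE 0.0716, edgeR adjusted p = 0.169). Ndufa9, an accessory subunit near the Q module, had 142, 118 and 110 CPM with siCD36, against 143, 146 and 142 CPM with siCont. Ndufb7, a subunit of the distal P module on the side of the intermembrane space, had 164, 125 and 116 CPM with siCD36, against 162, 165 and 163 CPM with siCont. In both of these genes the siCont libraries were nearly equal, siCD36 replicate 1 was at their level, and siCD36 replicates 2 and 3 were lower (log2 fold changes -0.22 and -0.27, edgeR adjusted p = 0.235 and 0.255). With single libraries left out these values ran from -0.33 to -0.14 in Ndufa9 and from -0.44 to -0.17 in Ndufb7.

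Ndufa10, which lies on the matrix side of the membrane arm, had 204, 187 and 156 CPM with siCD36, against 217, 213 and 192 CPM with siCont, and a log2 fold change of -0.18 (-0.27 to -0.08 with single libraries left out). Ndufb5 of the distal P module had 90.0, 99.7 and 70.2 CPM with siCD36, against 142, 96.9 and 89.5 CPM with siCont, a log2 fold change of -0.34 (SE 0.209), which was -0.11 without siCont replicate 1. Ndufa4, the complex IV protein, had the lowest fold change of the 37, and the spread of its siCont libraries was wide. It had 170, 156 and 143 CPM with siCD36, against 193, 174 and 278 CPM with siCont, a log2 fold change of -0.46 (SE 0.181, edgeR adjusted p = 0.181), which was -0.23 without siCont replicate 3. By module, 8 of 10 genes of the N module, 6 of 6 of the Q module, 7 of 9 of the proximal P module and 8 of 11 of the distal P module were below 0, as was Ndufa4, which was counted in no module. The medians of the modules were -0.12, -0.25, -0.05 and -0.09 in that order, and differences between modules were not tested.

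The 7 genes above 0 were Ndufc1, Ndufa8, Ndufa12, Ndufs6, Ndufb6, Ndufb4 and Ndufab1, and none passed the test. Ndufc1, a small subunit of the membrane arm, had the highest log2 fold change (0.31, SE 0.251), with 55.4, 38.8 and 35.6 CPM with siCD36, against 24.8, 43.8 and 36.2 CPM with siCont. Its highest and lowest values came from replicate 1 of each group, and the value without siCD36 replicate 1 was 0.09. Ndufa8, Ndufa12 and Ndufs6 had log2 fold changes of 0.14, 0.13 and 0.10, and of 0.01, 0.03 and -0.07 without siCD36 replicate 1. In that fit Ndufb6 (-0.09), Ndufb4 (-0.07) and Ndufab1 (-0.0044) were below 0 as well, so that Ndufc1, Ndufa8 and Ndufa12 were the genes above 0. Ndufab1, the acyl carrier protein of mitochondria, which also serves fatty acid synthesis there, was the gene nearest to 0 (log2 fold change 0.0023, interval -0.20 to 0.21).

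**Figure D2:**
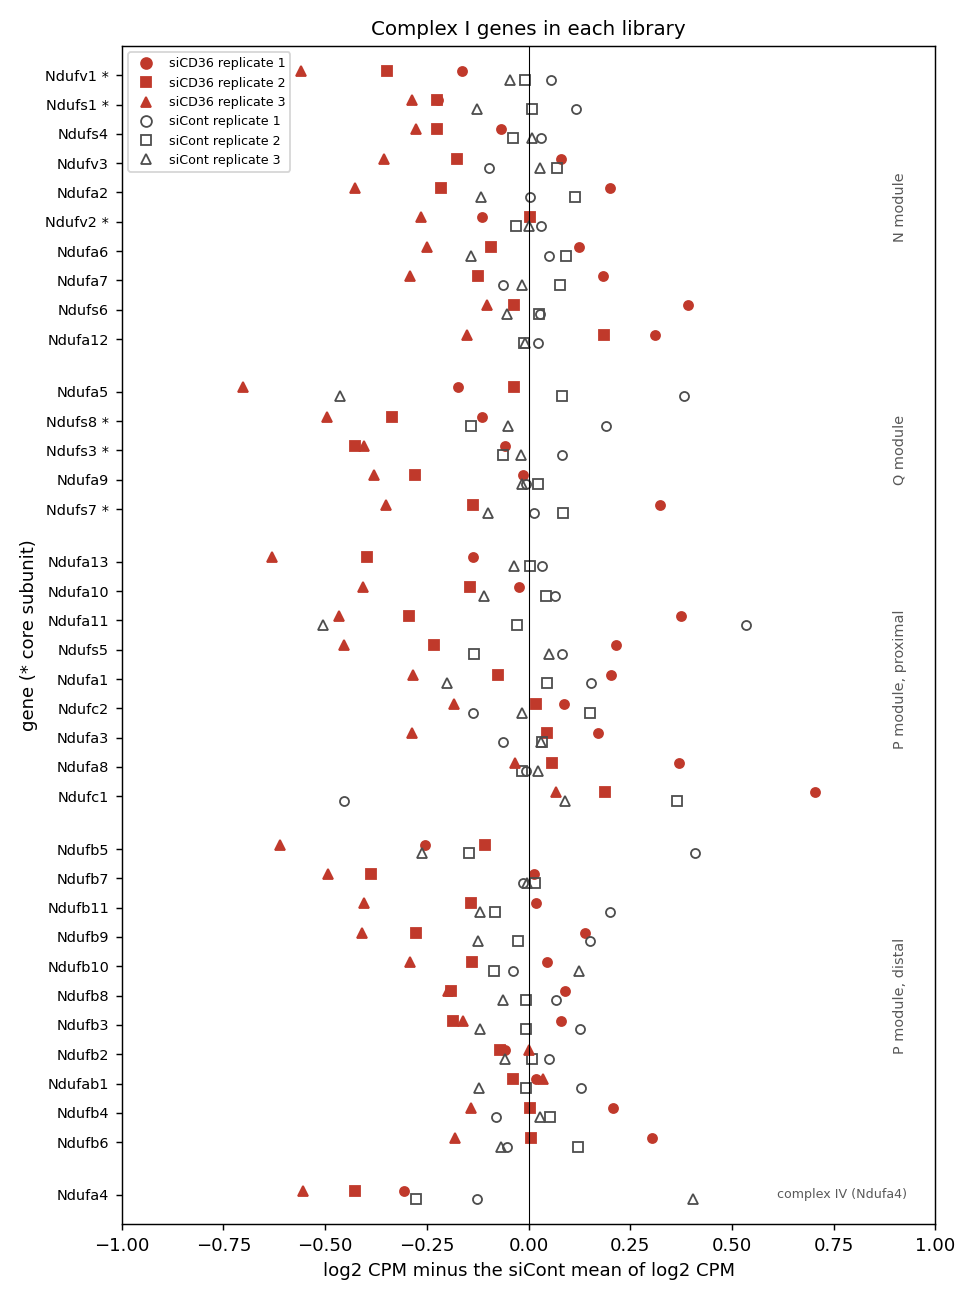
Log2 CPM of each library minus the siCont mean of log2 CPM (horizontal axis) for 36 of the tested genes, by module, with core subunits starred. Filled red symbols are siCD36 libraries and open gray symbols are siCont libraries, with 1 shape per replicate number. In 31 of 36 genes siCD36 replicate 1 (red circles) is the highest of its group, and in 32 siCD36 replicate 3 (red triangles) is the lowest.

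The siCD36 libraries differed among themselves in these genes. The summed level of the 38 genes was 4548, 3938 and 3569 CPM in siCD36 replicates 1 to 3 (mean 4018 ± 494, SD, n = 3), against 4635, 4432 and 4379 CPM in siCont replicates 1 to 3 (mean 4482 ± 135, SD, n = 3), and the siCD36 mean differed by -10.3% from the siCont mean. Replicate 1 of siCD36 thus lay within the siCont range and the other siCD36 libraries below it. It was the highest siCD36 library in 32 of the 37 genes (86.5%), against 40.4% of the other tested genes, and replicate 3 was the lowest in 32 (86.5%), against 36.2% of the others. The median of the 37 genes on the log2 scale, relative to the siCont mean, was 0.08 in siCD36 replicate 1, -0.14 in replicate 2 and -0.29 in replicate 3, whereas the median of all tested genes was below 0.01 in all 3. In siCont, replicate 1 was the highest of its group in 21 genes and replicate 3 the lowest in 20. Pairs of the 37 genes correlated over the 6 libraries with a median Pearson r of 0.615 in 666 pairs, of which 608 were above 0, and these points share the same libraries and scaling. No such value is given for pairs of other tested genes, so whether it is particular to complex I is not known.

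**Figure D3:**
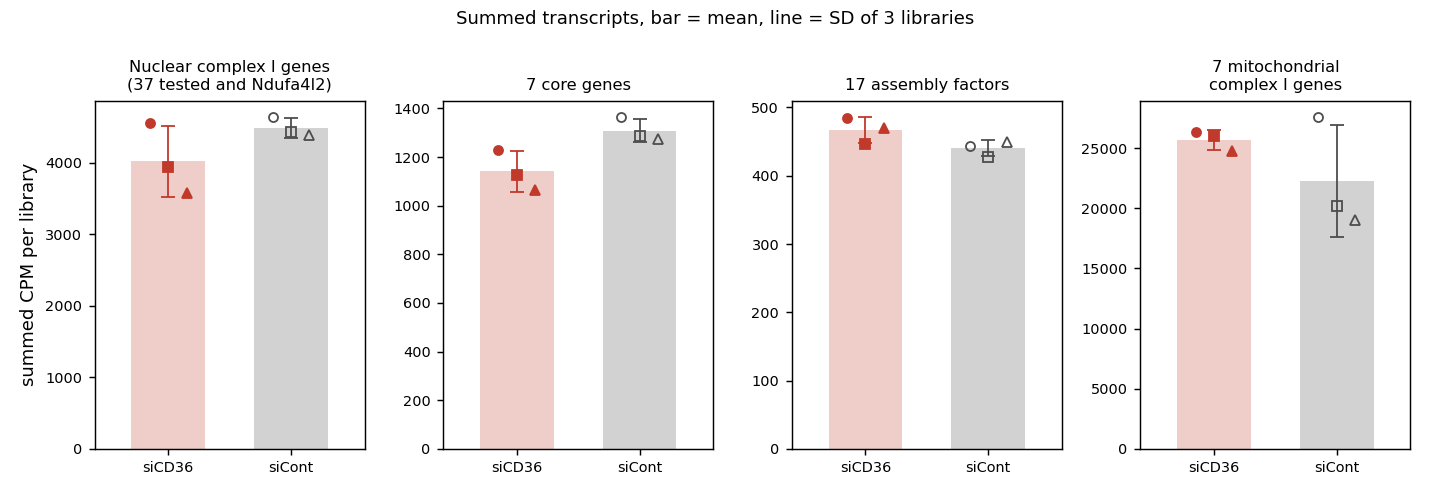
Summed CPM per library (vertical axes, each starting at 0) of the nuclear complex I genes, the 7 core genes among them, 17 assembly factors and the 7 complex I genes of the mitochondrial genome, with siCD36 in red and siCont in gray. Bars are means of 3 libraries, lines are SDs, and circles, squares and triangles are replicates 1, 2 and 3. The summed nuclear genes lie at 4548, 3938 and 3569 CPM with siCD36, against 4635, 4432 and 4379 CPM with siCont.

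The result therefore depended on which library was left out. Without siCD36 replicate 1, 5 of the 37 genes fell in edgeR, where 5.51% of all tested genes fell. They were Ndufb7 (log2 fold change -0.44, adjusted p = 0.0237), Ndufs3 (-0.42, adjusted p = 0.0302), Ndufa13 (-0.51, adjusted p = 0.0335), Ndufa9 (-0.33, adjusted p = 0.0358) and Ndufv1 (-0.45, adjusted p = 0.0379). In that fit 34 of 37 genes were below 0 and the median was -0.24. Replicate 1 was the highest siCD36 library in 32 of the 37 genes, against 40.4% of the other tested genes. Leaving it out thus lowered the siCD36 mean of most complex I genes by construction. The share over all tested genes does not allow for this, and the calls in that fit are a description. With any of the other 5 libraries left out, 0 of the 37 passed the test in edgeR, and the median was -0.05 without siCD36 replicate 3 and between -0.14 and -0.09 without each of the others. Library siCD36 replicate 1 is not marked as different by the labels.

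Transcript length moved with the levels of this library. Over all tested genes, the median log2 level of siCD36 replicate 1 relative to siCont was 0.13 for the 1679 genes with a longest transcript under 1 kb, 0.07 from 1 to 2 kb, 0.01 from 2 to 4 kb and -0.08 over 4 kb. In the same order of classes the medians were 0.11, -0.03, -0.01 and 0.02 in siCD36 replicate 2. In siCD36 replicate 3 they were 0.02, -0.06, -0.02 and 0.06, so medians differed by length in the other siCD36 libraries too. Complex I genes are short, with 17 of 37 under 1 kb and 12 from 1 to 2 kb. In the shortest class the median of the 17 complex I genes relative to siCont was 0.20 in siCD36 replicate 1, -0.12 in replicate 2 and -0.29 in replicate 3, against 0.13, 0.11 and 0.02 for all genes of that length. When a trend on length was removed from each library (chosen after seeing the data), 0 of the 37 passed edgeR, the median was -0.16 and the smallest adjusted p was 0.0554. Summed muscle markers followed the same order within siCD36, at 18067, 14324 and 13415 CPM in replicates 1 to 3, and their part in the result was not tested.

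**Figure D4:**
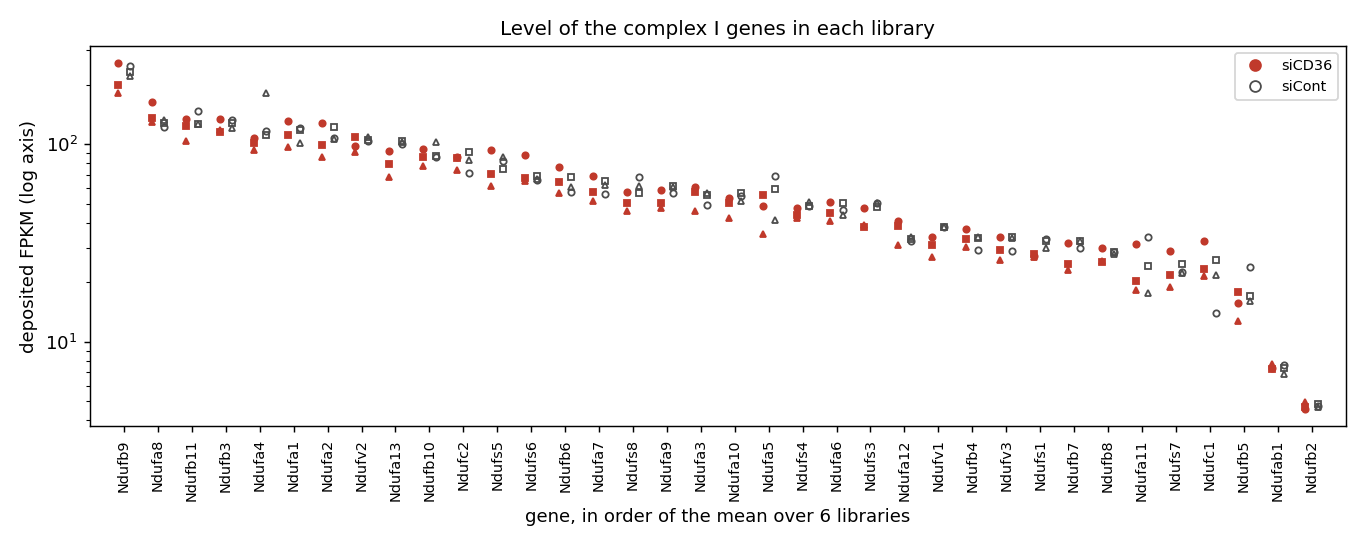
Deposited FPKM (vertical axis, log scale) of 36 of the tested genes in each library, in order of the mean over 6 libraries, with siCD36 filled red and siCont open gray. Shapes are replicate numbers. Ndufb9 is highest, with a mean of 223 FPKM, and Ndufb2 lowest, with 4.73 FPKM.

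The members differed widely in level. Ndufb9, a subunit of the distal P module, was highest with 257, 199 and 183 FPKM with siCD36, against 249, 232 and 221 FPKM with siCont, and in CPM it had 304, 228 and 208 with siCD36, against 306, 271 and 253 with siCont (log2 fold change -0.17, and -0.35 to -0.06 with single libraries left out). At the low end, Ndufb2 of the distal P module had 4.56, 4.66 and 4.93 FPKM with siCD36, against 4.71, 4.83 and 4.69 FPKM with siCont, and Ndufab1 had 7.29 to 7.73 FPKM with siCD36, against 6.87 to 7.63 FPKM with siCont. Neither overlapped with Ndufb5, next in order, which had 12.7 to 17.9 FPKM with siCD36, against 16.1 to 23.9 FPKM with siCont. Ndufb2 varied little between libraries, with a log2 fold change of -0.04 (SE 0.0746) and CPM between 29.2 and 30.7 with siCD36, against 29.4 to 31.7 with siCont. The order depended on the length used. The ratio of count to FPKM implied a length of 5.08 kb for Ndufb7, whose longest coding transcript has 623 bases, and per base of that transcript Ndufb7 was the third of the 38 genes, against the 30th by FPKM. Ndufb9 was the first and Ndufb2 the 37th by both measures. In GENCODE, exons of Ndufb9 share bases with Gm49356 and those of Ndufb2 with Gm42420, both on the same strand, and those of Ndufb2 also with Braf and Gm16272 on the other. How the authors assigned reads of shared bases is not given in the sources used here, so both levels are uncertain. In all 17 of the 38 genes share exon bases with another gene, among them Ndufb5 (with Mrpl47) and Ndufa9 (with an antisense RNA) on the other strand.

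Ndufa4l2 was the only gene of the 38 that could not be tested. It had counts of 0, 8 and 0 with siCD36, against 16, 0 and 8 with siCont, and no fold change is given. Among low counts of the deposited table, 4 was far more frequent than its neighbors (6294 values, against 2002 at 3 and 1086 at 5), so a count may not stand for 1 fragment. A count of 0 allows up to 3 fragments, which would be 12 counts if each was written as 4. The name pattern without the need for a coding transcript also took in 5 further rows. Of these Ndufb1-ps, the mouse locus related to human NDUFB1, had 92.5, 73.1 and 61.5 CPM with siCD36, against 89.2, 80.4 and 74.3 CPM with siCont, and a log2 fold change of -0.10 (edgeR adjusted p = 0.726). Its siCD36 libraries stood in the same order as the summed coding members. Ndufab1-ps, Ndufs6b and Ndufb4c had log2 fold changes of 0.20, 0.14 and -0.33 without passing, and Ndufa11b was too low to test. Their names pair them with Ndufab1, Ndufs6 and Ndufb4, and how the authors assigned reads to near-identical copies was not stated, so these values are uncertain.

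Partner genes were described from lists. Of 17 tested assembly factors, proteins that help build complex I and are not part of it, 0 rose and 0 fell in edgeR. At an unadjusted p under 0.05, 2 were higher, where 12.5% of all tested genes were. Of the 17, 11 were above 0, and the median log2 fold change was 0.14. DESeq2 called 1 of them higher and limma called 0. Of the 11764 genes to which DESeq2 gave an adjusted p, it called 768 higher. Tmem186 had 28.4, 29.1 and 34.0 CPM with siCD36, against 24.0, 24.7 and 22.5 CPM with siCont, without overlap (log2 fold change 0.36, edgeR adjusted p = 0.0919). The assembly factors and the subunits thus had medians on different sides of 0, a difference that was not tested. Of the 7 complex I genes of the mitochondrial genome, which encode the proton-pumping core of the membrane arm, 1 rose and 6 did not pass. Their median log2 fold change was 0.22, and 2.2% of all tested genes rose in edgeR. The gene that rose was mt-Nd3, with 478, 468 and 420 CPM with siCD36, against 366, 340 and 366 CPM with siCont (log2 fold change 0.35, edgeR adjusted p = 0.0498). Its call was lost in all 6 fits that left out 1 library, with adjusted p values of 0.0611 to 0.192 from edgeR. The summed level of the 7 was 26318, 25971 and 24735 CPM in siCD36 replicates 1 to 3, against 27567, 20198 and 19024 CPM in siCont replicates 1 to 3, where siCont replicate 1 was the highest of all 6. The ratio of the summed nuclear genes to the mitochondrial ones was 0.173, 0.152 and 0.144 with siCD36, against 0.168, 0.219 and 0.230 with siCont. The groups overlapped only in that siCD36 replicate 1 lay above siCont replicate 1.

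The other complexes of the chain gave a background for these values. Medians were -0.09 over 4 genes of complex II, -0.13 over 9 of complex III, -0.11 over 13 of complex IV and -0.09 over 16 of complex V, close to the -0.13 of the 37 complex I genes. In complexes II, III and IV 0 genes rose and 0 fell in edgeR, with 1, 1 and 2 lower at an unadjusted p under 0.05, and DESeq2 called 1, 0 and 1 lower and limma 0. In complex V Atp5b, the catalytic subunit of ATP synthase, fell, with 1241, 1111 and 982 CPM with siCD36, against 2239, 2027 and 1821 CPM with siCont (log2 fold change -0.87, SE 0.121, edgeR adjusted p = 0.0216), and 15 did not pass. In complex V 3 genes were lower at an unadjusted p under 0.05, DESeq2 called 3 lower and limma 1. Over all tested genes, 3.06% fell in edgeR and 12.9% were lower at an unadjusted p under 0.05, and DESeq2 called 7.73% lower. The edgeR call of Atp5b was lost without siCD36 replicate 2 (adjusted p = 0.103), siCD36 replicate 3 (0.0603), siCont replicate 1 (0.0581) and siCont replicate 2 (0.0990), all in edgeR. Of 11 listed regulators of respiratory genes, 7 could be tested, and Tfam, which maintains and transcribes mitochondrial DNA, fell, with 37.1, 39.9 and 36.3 CPM with siCD36, against 58.9, 55.0 and 49.6 CPM with siCont (log2 fold change -0.53, edgeR adjusted p = 0.0308), a call lost in 5 of the 6 fits that left out 1 library and kept without siCD36 replicate 1. The other 6 did not pass, and Ppargc1a, Ppargc1b, Esrrb and Esrrg were below the level tested.

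**Figure D5:**
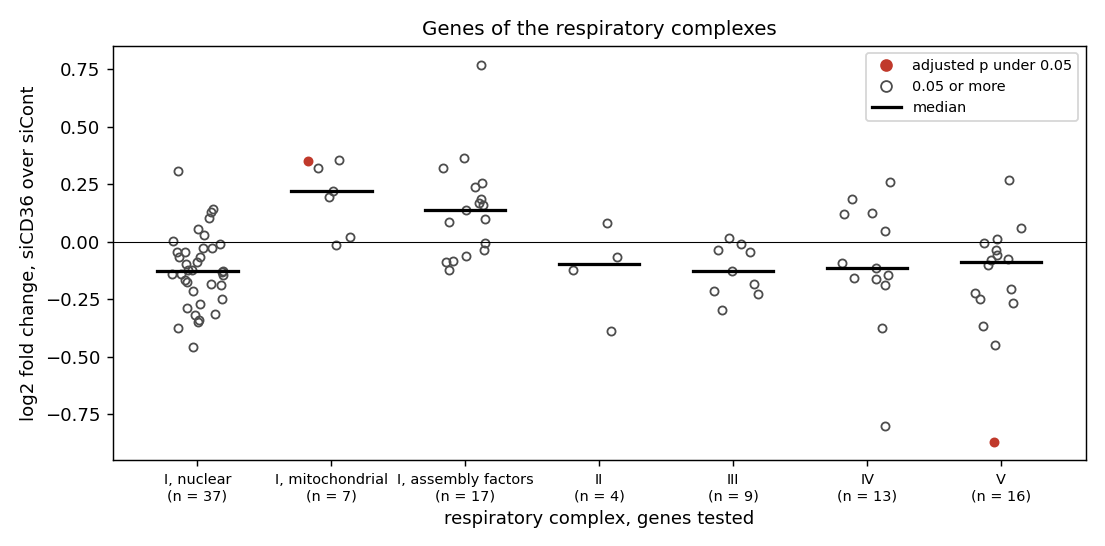
Log2 fold change (siCD36 over siCont, vertical axis) of each tested gene of the respiratory complexes (points, n under each label), with medians as black lines and genes with an adjusted p under 0.05 from edgeR filled red. The nuclear complex I genes have a median of -0.13 and no filled point, the mitochondrial ones 1 (mt-Nd3) and complex V 1 (Atp5b).

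The genes whose level over the 6 libraries was most like the summed complex I genes were Ldha, Nprl2, Nop9, Ppp2ca and Ptgds, with Pearson r of 0.998, 0.998, 0.997, 0.996 and 0.995 on log2 CPM. Ldha, which encodes the muscle subunit of lactate dehydrogenase, had 915, 668 and 557 CPM with siCD36, against 935, 880 and 840 CPM with siCont. None of the 5 passed the test in edgeR (adjusted p from 0.329 to 0.570), and the r values are a description, picked as the highest of all tested genes over 6 libraries.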

How the data were processed

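The members and gene lists were chosen with earlier results of these data known. Total RNA of 6 libraries was sequenced by the authors as read pairs, which they mapped with HISAT, and StringTie gave them FPKM. Their deposited table holds counts and FPKM per gene. The sources used here name no counting tool, strand setting, build or annotation, but all 55450 genes were found in GENCODE M21 (GRCm38), 94.7% with the same coordinates, as for 28 of the 38 members. Low deposited counts were enriched at multiples of 4 (6294 values of 4, against 2002 of 3), so counts may exceed fragments, and no interval from counting is given. No pair of libraries agreed within sampling noise (the lowest chi-square per gene was 74.2).

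Counts were tested with edgeR 4.0.16 (R 4.3.3; quasi-likelihood, TMM, condition only, all 6 libraries) over the 11796 genes that averaged at least 1 FPKM, with Benjamini-Hochberg adjustment over all of them and a threshold of 0.05. Standard errors are the log2 fold change over the root of F, and intervals are 95%. CPM used TMM-scaled totals of tested genes, with 0.5 added before logs. The scripts were tested on simulated data. Alternatives were other scalings, filters, DESeq2 1.42.0, limma 3.58.1 on log2(FPKM + 1) or + 0.1, a replicate block, each library left out, and, chosen after seeing the data, a length offset and counts divided by 4. Values per library are given for the 12 members with the smallest unadjusted p, the 7 core genes, the highest and lowest in FPKM, Ndufa4 and Ndufa4l2, with single others where a result turns on them. Other lists name genes under the threshold, up to 4 each, and Tmem186, Ndufc1 and Mef2c were named after their values were seen. The likeness rule took the 5 genes with the highest r. For 1 tested member, single values are not reported here, and it is counted in the totals.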

Additional observations from a re-analysis of the deposited data

How the results depend on the processing

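With 19 alternatives, no complex I gene rose in any, and the median log2 fold change of the complex I genes stayed below 0. Of 37 genes tested, 0 fell in 6 libraries, 1 fell in DESeq2 (Ndufv1) and 0 to 5 fell with single libraries left out. The genes changed over the whole table numbered 621 in edgeR, 327 with no filter on level, 1677 in DESeq2, and 20 to 1081 with single libraries left out. At an unadjusted p, 7 complex I genes were lower in 6 libraries (12.9% of all tested genes were), 3 with upper quartile scaling (11.3%) and 16 without siCD36 replicate 1 (16.4%). That library was the highest of siCD36 in most complex I genes, so leaving it out favors lower values in this set. Subunits without overlap between the groups numbered 5 to 21 with single libraries left out, where 37.5% to 51.3% of all tested genes did not overlap in 1 direction or the other, and the median was -0.24 to -0.05. Ndufs7 turned above 0 when siCD36 replicate 2 (0.02), siCD36 replicate 3 (0.11) or siCont replicate 2 (0.01) was left out. Among single genes, 6 values passed the test that did not in 6 libraries, all in complex I genes, and 38 calls were lost, all in genes of the other lists. This split was fixed by which genes were followed. None of the complex I genes passed in 6 libraries, and every followed gene of the other lists did.

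With the replicate block, 199 genes changed, 0 of the complex I genes among them, and the median was -0.13. Over all tested genes, deviations of libraries with the same number correlated at 0.143, -0.0341 and 0.0448. In the summed complex I genes, however, replicate 1 was highest and replicate 3 lowest in both groups. Whether the numbers pair the libraries was therefore not settled. The cause of the differences between fits was not tested. Precision was limited by 3 libraries a group, with 95% intervals that reached a median of 0.29 to either side of the fold change.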
